A study of Mus musculus with 5 samples.

Results

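The cluster histone genes are the genes that encode the bulk of the histone proteins made during DNA replication, and they lie in a few tight groups in the genome. They were taken as every gene whose symbol in the deposited table begins with Hist1h, Hist2h, Hist3h or Hist4h, which gave 70 of 53927 genes. By the histone in the symbol, 6 belong to the linker histone H1, 20 to H2A, 19 to H2B, 12 to H3 and 13 to H4. Hist1h2aj, Hist1h2al and Hist3h2bb-ps among them are annotated as pseudogenes. Their RNA was followed in cultures of primary nephron progenitor cells, from which the kidney's nephrons arise, taken from C57BL/6J mouse embryos. The cells were either Dis3l2+/+ (WT, 2 libraries) or Dis3l2-/- (KO, 3 libraries) and had gone through 1 passage in culture. All 5 libraries share the strain, the culture system and the passage, and the embryos' age was not given in the sources used here. Dis3l2 encodes an exonuclease that degrades RNA from its 3′ end and prefers RNAs carrying a tail of uridines. Total RNA was made into stranded libraries and read from a single end over 50 bases. No label says whether replicates came from separate embryos or litters, so a p-value speaks only of the spread among these 5 libraries, which may be technical.

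Histone proteins package DNA into nucleosomes, each built from H2A, H2B, H3 and H4, with H1 binding the linker DNA between them. Most messages of the cluster genes have no introns and no poly(A) tail. They end instead just past a short hairpin, the histone stem-loop, which is bound by the stem-loop binding protein Slbp, and the cut behind it is guided by the U7 small nuclear RNA. These messages build up in S phase and are destroyed when DNA synthesis stops. That decay is known to begin with the addition of uridines to the 3′ end. A total RNA library, unlike one selected for poly(A), keeps such messages.

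The hairpins are shown because they are the shared 3′ signal of the family and because they differ between H4 and the other types. A search of the gene models of GENCODE release M21 (build GRCm38), which matched all 70 genes, found the histone stem-loop, of 16 bases, in 46 of them. The windows below run 5′ to 3′ in DNA letters with 5 bases on either side, and capitals mark the 2 arms of the stem.
Hist1h4d: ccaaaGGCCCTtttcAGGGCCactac
Hist1h4c: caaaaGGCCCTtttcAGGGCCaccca
Hist4h4: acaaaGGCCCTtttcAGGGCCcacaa
Hist1h4b: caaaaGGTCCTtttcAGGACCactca
Hist1h2bf: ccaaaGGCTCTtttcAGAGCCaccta
Hist1h2bb: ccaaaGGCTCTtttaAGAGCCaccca
Hist1h2ab: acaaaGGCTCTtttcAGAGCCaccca
Hist1h3b: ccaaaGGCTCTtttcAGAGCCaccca
Hist1h1e: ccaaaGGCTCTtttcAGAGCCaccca
Of the 12 H4 genes with a hairpin in their model, 10 had the arm GGCCCT and 2, Hist1h4b and Hist1h4j, had GGTCCT. All 34 hairpins found in H1, H2A, H2B and H3 genes had the arm GGCTCT. The 24 models with no match include some that end at the stop codon, among them Hist1h4k and Hist1h2bl, whose 3′ ends therefore could not be searched.

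Promoters are shown for 2 genes that lead the values given later, Hist1h4d and Hist1h2bl. The windows, of 300 bases (250 before the start and 50 after), are those of RefSeq for GRCm38.p6, which matched 62 of the 70 genes. Capitals mark matches on either strand to TATAAA (the TATA box), CCAAT (the CCAAT box) or ATTTGCAT (the octamer). Neighbouring matches can overlap.
Hist1h4d (chr13:23581318-23581617, plus strand): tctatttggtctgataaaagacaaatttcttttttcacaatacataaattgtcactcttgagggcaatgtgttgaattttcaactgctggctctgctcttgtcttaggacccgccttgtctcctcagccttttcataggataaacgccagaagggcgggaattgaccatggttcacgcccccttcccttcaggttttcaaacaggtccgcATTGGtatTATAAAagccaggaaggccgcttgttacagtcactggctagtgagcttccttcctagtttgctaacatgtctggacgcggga
Hist1h2bl (chr13:21716134-21716433, minus strand): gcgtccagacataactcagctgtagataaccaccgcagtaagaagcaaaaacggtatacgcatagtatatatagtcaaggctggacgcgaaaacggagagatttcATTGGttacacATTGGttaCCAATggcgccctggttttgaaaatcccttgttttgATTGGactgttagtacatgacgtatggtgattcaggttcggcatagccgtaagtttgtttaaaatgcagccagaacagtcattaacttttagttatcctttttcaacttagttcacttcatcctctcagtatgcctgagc
Hist1h4d held a TATA box match and a CCAAT match read from the other strand. Hist1h2bl held several CCAAT matches and neither of the other motifs. TATAAA was found in 56.5% of the 62 member promoters, against 13.6% of all 32851 promoter windows of that length. CCAAT was found in 85.5% of member promoters against 37.4% of all. All 6 H1, 18 H2A, 16 H2B and 10 H3 promoters held CCAAT, and 3 of 12 H4 promoters did, those of Hist1h4a, Hist1h4c and Hist1h4d. The octamer was found in 20.97% of member promoters against 1.74% of all, in 7 H2A and 6 H2B promoters and in no H1, H3 or H4 promoter. A match describes these letters only.

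Copies of a histone type are so alike that 50-base reads often cannot be assigned to a single gene. The 13 H4 coding regions, of 309 bases each, were 85.4% to 100% identical in pairs, with a median of 93.8%. The first 90 coding bases of 4 H4 genes show the kind of difference that separates them. Capitals mark the 22 positions at which the 4 genes are not all equal.
Hist1h4d: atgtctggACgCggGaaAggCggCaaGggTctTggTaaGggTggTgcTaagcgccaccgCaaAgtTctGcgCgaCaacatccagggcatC
Hist1h4c: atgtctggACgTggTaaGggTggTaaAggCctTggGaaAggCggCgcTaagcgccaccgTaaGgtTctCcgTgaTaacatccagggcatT
Hist1h4k: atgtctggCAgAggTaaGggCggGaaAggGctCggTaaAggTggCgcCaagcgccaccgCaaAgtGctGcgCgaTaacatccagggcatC
Hist1h4f: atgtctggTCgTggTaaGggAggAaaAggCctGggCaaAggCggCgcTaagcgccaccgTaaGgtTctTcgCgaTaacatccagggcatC
The median share of 50-base windows found in no other gene was 98.9% for H1 genes, 60.5% for H4, 55.9% for H2B, 38.0% for H3 and 26.8% for H2A. Windows held by any other gene on either strand counted as shared, overlapping genes included. The share thus does not measure the likeness of histone copies alone. Hist2h2bb had 0% unique windows, with 0% shared with members only and 100% shared with other genes. The share also covers the whole gene model, part of which can lie past the hairpin. How reads with several matches were counted was not given in the sources used here. Values of genes with a low share are therefore uncertain as values of that copy. Of the 70 genes, 26 overlap another annotated gene, 7 of them on the same strand and 23 on the other. Whether the counting used strand is not stated.

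The deposited levels are CPM, read counts scaled to the effective size of each library. Steps in the low values put the depth at 19.6 M to 49.2 M assigned reads per library, deepest in KO replicate 1 and shallowest in KO replicate 3. A gene with 3 reads has 0.0639 to 0.141 CPM, a floor for counting error only. Dis3l2 itself was at 16.04 and 12.2 CPM in the WT libraries against 6.50, 4.93 and 4.70 CPM in the KO libraries. Of the 12 nephron progenitor markers listed, 11 were measured, with a summed level of 733 and 940 CPM in WT and 751 to 918 CPM in KO. The sum hides differences of single markers, 2 of which are named after their values were seen. Six2 was at 18.97 and 18.82 CPM in WT replicates 1 and 2 and 31.9, 26.5 and 18.6 CPM in KO. Cited1 was at 15.16 and 1.40 CPM in WT replicates 1 and 2 and 17.05, 4.74 and 2.73 CPM in KO. Stromal markers, 7 of 9 measured, summed to 758 and 1556 CPM in WT and 756 to 1317 in KO. The ureteric bud, podocyte, endothelial, leukocyte and erythroid lists each summed to at most 73.2 CPM in any library. Of 8 testis and germ cell markers 1 was measured, and Prm1, Prm2, Tnp1, Acrv1 and Stra8 were at 0 in every library. Libraries were also split by Xist, the RNA of the inactive X chromosome, at 951 CPM in WT replicate 2 and 872 and 765 CPM in KO replicates 1 and 2. It was at 0.93 CPM in WT replicate 1 and 0.52 CPM in KO replicate 3, where the Y-linked Ddx3y was at 104 and 128 CPM.

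Cluster histone RNA was high in KO replicates 1 and 2 and at or below the WT level in KO replicate 3. Summed over all 70 genes, the level was 1446 and 1078 CPM in WT replicates 1 and 2, and 3637, 2871 and 1055 CPM in KO replicates 1, 2 and 3. The KO libraries lay at 2.88, 2.28 and 0.836 times the WT mean. The WT libraries themselves differed 1.34-fold. The groups overlapped, since KO replicate 3 was below both WT libraries. These genes made up 0.139% and 0.109% of all assigned reads in WT and 0.346%, 0.286% and 0.114% in KO.

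H4 had the largest ratios to WT of the 5 types in KO replicates 1 and 2. The H4 sum was 209 and 177 CPM in WT, a mean of 193 ± 22.5 (SD, n = 2). In KO it was 1286, 1154 and 145 CPM, a mean of 862 ± 624 (SD, n = 3). KO replicates 1 and 2 were thus 6.67-fold and 5.98-fold above the WT mean, and KO replicate 3 was at 0.754 of it. H1 summed to 685 and 477 CPM in the WT libraries against 1249, 876 and 491 CPM in the KO libraries, of which KO replicate 3 lay between the WT libraries. H2B summed to 389 and 304 CPM in the WT libraries against 789, 603 and 311 CPM in the KO libraries. H3 summed to 112 and 80.9 CPM in the WT libraries against 216, 149 and 72.6 CPM in the KO libraries. H2A, the type with the lowest sum, was at 50.3 and 39.0 CPM in the WT libraries against 96.9, 90.1 and 34.9 CPM in the KO libraries. In H1, H2A, H2B and H3 the KO replicate 1 and 2 sums were 1.51-fold to 2.28-fold above the WT mean. H4 accordingly took 14.4% and 16.4% of the reads on cluster histone genes in WT, 35.4% and 40.2% in KO replicates 1 and 2, and 13.8% in KO replicate 3. These are shares of reads and not per length. In RNA from a whole culture, a difference in the number of cells in S phase and one in histone RNA per cell cannot be told apart.

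**Figure D1:**
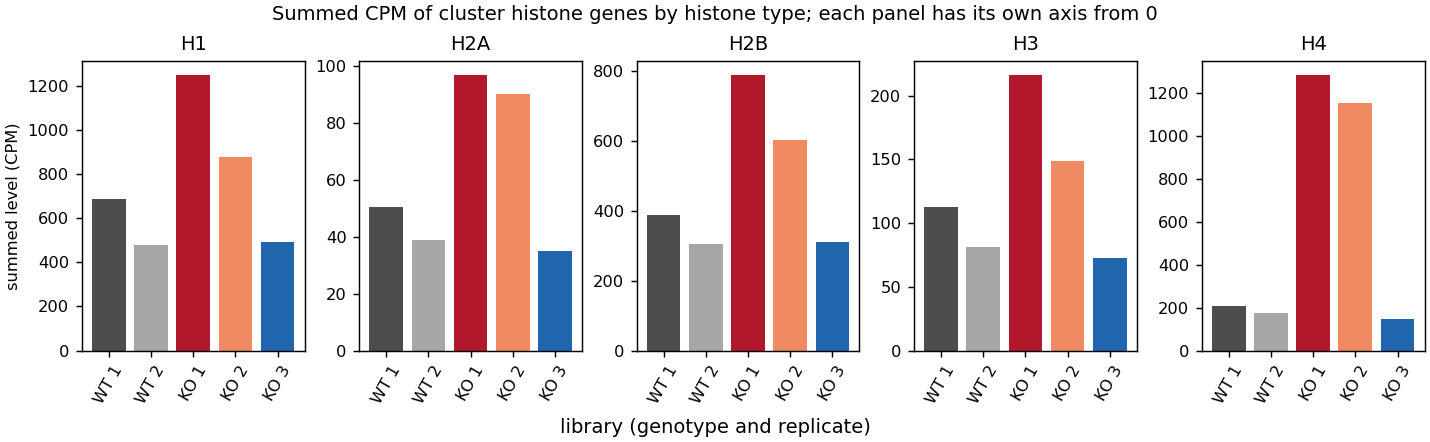
Summed CPM of the cluster histone genes (vertical axis, from 0, on its own scale in each panel) in each of the 5 libraries (horizontal axis), with 1 panel for each histone type and 1 bar per library. KO replicates 1 and 2 stand above both WT libraries in every panel, most in H4 with 1286 and 1154 CPM, while KO replicate 3, at 145 CPM in H4, does not.

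With Xist and Ddx3y splitting the libraries, each KO library was also set against the WT library on its side of that split. KO replicate 3 had 0.730 times the cluster histone sum of WT replicate 1, and KO replicates 1 and 2 had 3.37 and 2.66 times that of WT replicate 2. For H4 these ratios were 0.696, 7.27 and 6.52. Each side has a single WT library, so no spread or test stands behind them. The WT library on the Xist side had the lower histone level of the WT pair.

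In the comparison of genotypes over all 5 libraries, with genotype as the only term, no cluster histone gene passed the test. Of the 70 genes, 59 had at least 0.5 CPM in at least 2 libraries and were tested: 5 H1, 13 H2A, 17 H2B, 11 H3 and 13 H4 genes. With limma on log2(CPM + 1) and Benjamini-Hochberg adjustment over 14884 genes, 0 of the 59 had an adjusted p under 0.05, where 0.00672% of all genes did. At an unadjusted p under 0.05 the count was also 0, against 2.77% of all genes. Dis3l2 itself did not pass either, at a log2 fold change of -1.24 (SE 0.21; limma, adjusted p 0.95). A gene that did not pass can therefore still differ between the genotypes. The fitted log2 fold change, KO over WT, was above 0 in 58 of the 59, against 52.9% of all genes. Its median was 0.55 over the measured members and 0.01 over all genes tested. By type the median was 1.35 in H4, 0.79 in H2B, 0.51 in H1, 0.50 in H2A and 0.48 in H3. With the smallest level of a member set by the filter, these counts describe the 59 and not all 70 genes. The authors' deposited table gave 65 of the 70 genes a fold change above 0 and 2 one below 0. Over all 53927 genes it gave 15268 above and 13024 below. There 20 of the members had a p under 0.05, where 2.22% of all genes did. Of all genes 25172 were at 0 in every library, against 3 of the 70, which lowers the shares over all genes. None had an FDR under 0.05 there, where 0.0315% of all genes did, and the smallest member p in the authors' deposited table was 0.0116.

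The overlap of groups gives the same picture by gene. The KO libraries were all higher than both WT libraries in 1 of the 59 genes, against 7.85% of all genes tested. That gene was Hist1h4i, an H4 gene named here after its values were seen, at 3.15 and 3.27 CPM in the WT libraries against 8.33, 8.73 and 3.29 CPM in the KO libraries. KO replicate 3 cleared the higher WT library there by 0.02 CPM, less than the level of 1 read. KO replicates 1 and 2 were both above both WT libraries in 53 of the 59, against 23.5% of all genes. KO replicate 3 was below both in 41 of the 59, against 33.7% of all genes. The 13 H4 genes were all among the 53, and 10 of them were among the 41.

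**Figure D2:**
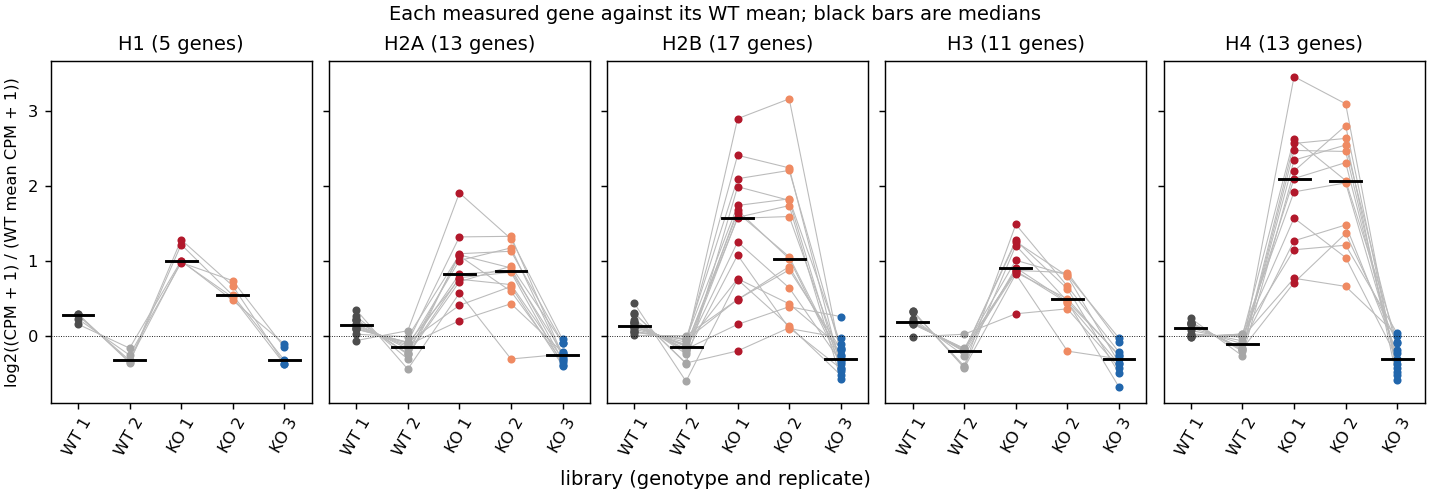
Each point is 1 measured cluster histone gene in 1 library, as log2 of its CPM + 1 over the WT mean CPM + 1 (vertical axis), with libraries on the horizontal axis, 1 panel per histone type, grey lines joining a gene's values and black bars the median. The H4 medians of KO replicates 1, 2 and 3 are 2.101, 2.075 and -0.309, and in the other types the KO replicate 1 and 2 medians are lower than these.

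Each library was left out in turn, and leaving out KO replicate 3 changed the calls. In that fit, of 2 WT against 2 KO libraries, 8 of 14729 genes had an adjusted p under 0.05 (limma), a share of 0.0543%, and all 8 were cluster histone genes. Hist1h2bf and Hist1h4b are named for this, after their values were seen. The calls were 6 H4 genes, Hist1h4d, Hist1h4k, Hist1h4c, Hist4h4, Hist1h4b and Hist1h4h, and 2 H2B genes, Hist1h2bl and Hist1h2bf. Of the measured members 50 had an unadjusted p under 0.05, where 10.4% of all genes did. The median log2 fold change was then 0.96 over the measured members and 0.01 over all genes. By type it was 2.21 in H4, 1.36 in H2B, 0.88 in H1, 0.87 in H3 and 0.85 in H2A. A log2 fold change above 1 was fitted for 131 genes, or 0.889% of all tested, and 28 of them were cluster histone genes. Leaving out any other library gave 0 calls among the members. KO replicate 3 is the library that stands apart in these same genes. The calls without it therefore describe how far KO replicates 1 and 2 lay from WT, and are no test of the genotype.

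**Figure D3:**
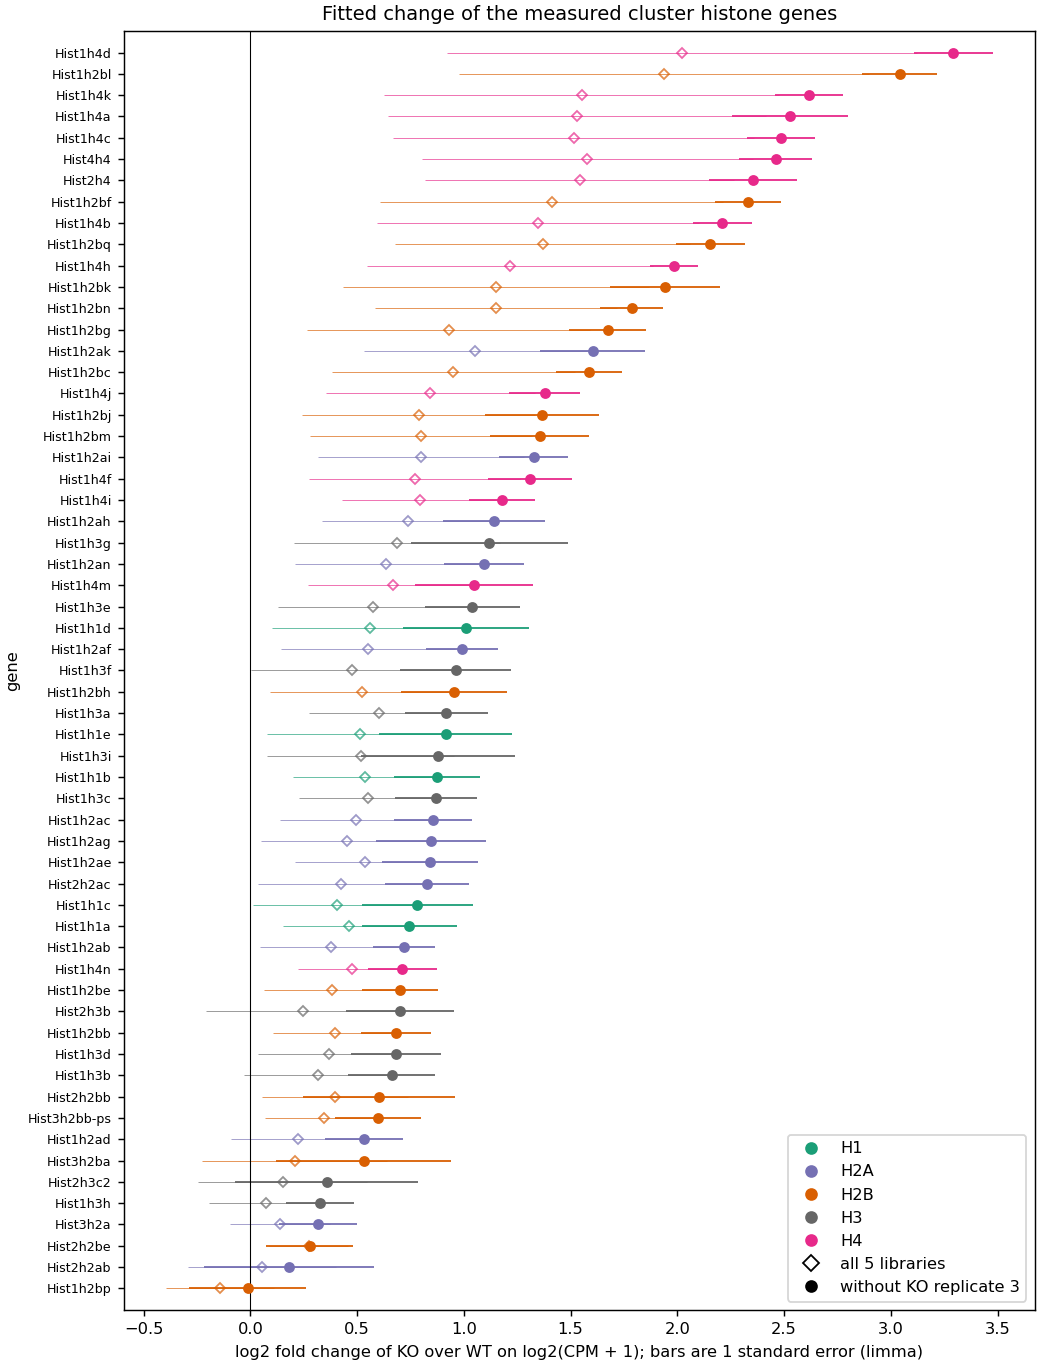
Fitted log2 fold change, KO over WT, on log2(CPM + 1) (horizontal axis) for the 59 measured cluster histone genes (vertical axis), coloured by histone type; open diamonds use all 5 libraries, filled circles leave out KO replicate 3, and bars are 1 standard error. H4 and H2B genes head the list, from Hist1h4d at 2.02 with all libraries and 3.29 without KO replicate 3, and with all libraries the standard errors are wide.

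H4 was the type with the largest median change. H4 forms, with H3, the tetramer at the core of the nucleosome. Hist1h4d (chr13:23581598-23582735, plus strand) is an H4 gene whose model is 89.8% unique in 50-base windows. Of the 1138 bases of that model 770 lie past the hairpin, and the share within the message alone was not computed. The level of Hist1h4d was 64.7 and 51.6 CPM in the WT libraries against 653, 507 and 40.1 CPM in the KO libraries. KO replicate 3 was below both WT libraries, and the other KO libraries were far above them. The log2 fold change was 2.02 (SE 1.10; limma, adjusted p 1.00) with all libraries and 3.29 (SE 0.19; adjusted p 0.0346) without KO replicate 3.

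Hist1h4c, another H4 gene with 80.4% unique windows, was at 28.0 and 21.1 CPM in the WT libraries against 141, 140 and 17.9 CPM in the KO libraries. Hist1h4h was at 21.8 and 22.5 CPM in the WT libraries against 86.9, 94.5 and 17.6 CPM in the KO libraries. Hist1h4k, of which 28.5% of windows are unique, was at 13.5 and 10.3 CPM in the WT libraries against 75.7, 79.4 and 7.57 CPM in the KO libraries. All 3 had the same pattern, with KO replicate 3 the lowest library of the 5. Without that library their log2 fold changes were 2.48 (SE 0.16), 1.98 (SE 0.11) and 2.62 (SE 0.16), each at an adjusted p of 0.0346 (limma). KO replicate 3 stands apart in these same genes. The p-values of the fit without it, here and below, are thus no test of the genotype.

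H4 genes outside the large Hist1 group had the same pattern. Hist4h4, the lone member of its cluster on chromosome 6, was at 10.48 and 8 CPM in the WT libraries against 51.1, 59.0 and 7.95 CPM in the KO libraries. Hist2h4 on chromosome 3, with 99.0% unique windows, was at 11.3 and 11.3 CPM in the WT libraries against 75.3, 50.8 and 10.6 CPM in the KO libraries. Their log2 fold changes without KO replicate 3 were 2.46 (SE 0.17) and 2.36 (SE 0.21), and Hist2h4 did not pass, at an adjusted p of 0.0677 (limma). The other H4 gene called in that fit, Hist1h4b, which overlaps 4930558J22Rik on the other strand, was at 12.2 and 11.02 CPM in the WT libraries against 53.2, 61.9 and 8.70 CPM in the KO libraries. H4 genes were not alike in size. In that fit their log2 fold changes ran from 0.71 in Hist1h4n to 3.29 in Hist1h4d. Differences of low-level genes are shrunk on the log2(CPM + 1) scale, and Hist1h4n, at 0.97 and 0.91 CPM in WT, is of that kind.

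H2B genes came next, with the widest range of fitted values of any type. H2B pairs with H2A on the outer faces of the nucleosome. Hist1h2bl was at 3.52 and 2.81 CPM in the WT libraries against 30.2, 36.4 and 2.45 CPM in the KO libraries. Hist1h2bf was at 5.29 and 4.56 CPM in the WT libraries against 30.6, 27.1 and 3.39 CPM in the KO libraries. Both had KO replicate 3 lowest of all libraries, and log2 fold changes without it of 3.04 (SE 0.18) and 2.33 (SE 0.15). Only 17.2% and 34.2% of their windows are unique, so these values may include reads of near-identical copies. The H2B genes with the most CPM had smaller differences. Hist2h2bb was at 208 and 152 CPM in the WT libraries against 381, 192 and 176 CPM in the KO libraries, with KO replicate 2 inside the WT range. None of its windows is unique and it overlaps Gm42743 on the same strand, so its value is uncertain. Hist1h2bb was at 66.5 and 61.2 CPM in the WT libraries against 89.6, 118 and 56.2 CPM in the KO libraries. Hist1h2be, which overlaps Hist1h1e on the same strand, was at 21.5 and 21.4 CPM in the WT libraries against 30.4, 41.6 and 17.8 CPM in the KO libraries. Hist1h2bh was at 20.3 and 15.7 CPM in the WT libraries against 44.2, 28.5 and 13.9 CPM in the KO libraries. In each of these 3 genes KO replicates 1 and 2 were above both WT libraries and KO replicate 3 below both. Hist1h2bp had the lowest fitted value of all members, a log2 fold change of -0.14 (SE 0.25), at 1.53 and 0.60 CPM in the WT libraries against 0.79, 1.22 and 0.52 CPM in the KO libraries, where the groups overlap.

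H1 genes had similar values to one another. H1 compacts chromatin between nucleosomes, and its genes are the most distinct in sequence. Hist1h1a was at 168 and 134 CPM in the WT libraries against 303, 209 and 139 CPM in the KO libraries. Hist1h1e was at 176 and 112 CPM in the WT libraries against 337, 210 and 114 CPM in the KO libraries. Hist1h1b was at 165 and 117 CPM in the WT libraries against 278, 235 and 126 CPM in the KO libraries. In these 3 genes KO replicates 1 and 2 were above both WT libraries and KO replicate 3 lay between them. Hist1h1d was at 108 and 69.3 CPM in the WT libraries against 217, 141 and 68.1 CPM in the KO libraries, with KO replicate 3 just below WT replicate 2. Over the 5 measured H1 genes the log2 fold change ran from 0.40 to 0.56 with all libraries and from 0.74 to 1.01 without KO replicate 3. The remaining H1 gene, Hist1h1t, the testis form, reached at most 0.36 CPM and was not tested.

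H3 genes had the smallest median change with all libraries. Hist1h3b was at 25.9 and 20.4 CPM in the WT libraries against 43.0, 31.7 and 17.5 CPM in the KO libraries. Hist1h3e was at 19.5 and 14.6 CPM in the WT libraries against 42.1, 30.3 and 12.98 CPM in the KO libraries. Hist1h3f was at 19.5 and 14.8 CPM in the WT libraries against 42.8, 27.0 and 11.8 CPM in the KO libraries. In all 3, and in Hist1h3d at 12.8 and 9.37 CPM in the WT libraries against 20.7, 15.9 and 8.98 CPM in the KO libraries, KO replicate 3 was the lowest library. H3 and H4 are used in equal amounts in the nucleosome, but their RNA sums stood at different ratios to WT. The H3 sum in KO replicates 1 and 2 was 2.24 and 1.54 times the WT mean, beside 6.67 and 5.98 for H4. Hist1h3h, among the lowest fitted members, was at 2.27 and 2.35 CPM in the WT libraries against 3.05, 3.24 and 1.46 CPM in the KO libraries, a log2 fold change of 0.07 (SE 0.27).

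H2A genes had low levels, and 7 of the 20 were not tested. Hist1h2ab was at 11.2 and 9.65 CPM in the WT libraries against 18.3, 17.3 and 8.18 CPM in the KO libraries. Hist2h2ac was at 8.81 and 6.18 CPM in the WT libraries against 13.5, 14.3 and 5.46 CPM in the KO libraries. Hist1h2ak was at 3.15 and 3.55 CPM in the WT libraries against 15.3, 9.67 and 3.2 CPM in the KO libraries, the H2A gene with the largest log2 fold change, 1.053 (SE 0.52). Hist1h2ac was at 4.87 and 3.65 CPM in the WT libraries against 8.31, 8.58 and 3.48 CPM in the KO libraries. In all 4 genes, KO replicates 1 and 2 were the 2 highest libraries. Hist2h2ab showed no such order, at 2.50 and 1.02 CPM in the WT libraries against 3.09, 1.22 and 1.32 CPM in the KO libraries. All 20 H2A models overlap a gene on the other strand, and without knowing whether strand was used the reads of the partners cannot be told apart.

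The 11 genes that did not pass the filter were at or near 0. Hist1h2al, a processed pseudogene annotated away from the rest of its cluster on chromosome 13, was at 0 in every library. So were Hist2h2aa1 and Hist2h3c1. A 0 allows a level of up to 0.0639 to 0.141 CPM. Both Hist2 genes lack unique 50-base windows, so a 0 there can also come from how shared reads were counted. Hist1h1t and the testis-type pair Hist1h2aa and Hist1h2ba stayed at or below 0.41 CPM. Hist1h2ao and Hist1h2ap reached 0.45 and 0.38 CPM, both in KO replicate 1. Hist2h2aa2, Hist1h2aj and Hist1h2br reached 0.13, 0.02 and 0.23 CPM. The symbol rule thus also takes in genes that this culture hardly expressed.

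Many H2A and H2B genes sit in head-to-head pairs with a shared promoter. In these models 14 such pairs were found, with 173 to 306 bases between the starts, and both genes were measured in 10. The H2B gene had the larger log2 fold change in 8 of the 10 pairs, in the fit without KO replicate 3. The widest gap was in the pair Hist1h2ad and Hist1h2bf, with 0.53 and 2.33, followed by Hist1h2ai and Hist1h2bl, with 1.33 and 3.04. In the pair Hist1h2an and Hist1h2bp the order was turned, with 1.10 and -0.01. In Hist2h2ac and Hist2h2be it was turned too, with 0.83 and 0.28. Log2(CPM + 1) shrinks the change of the gene with the lower level. That was the H2A gene in the first of these pairs, at a WT mean of 1.38 CPM against 4.92, and not in the second, at 3.31 against 3.17 CPM.

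The clusters differed in size and in the change of their members. Hist1 holds 56 of the 70 genes, of which 55, all but Hist1h2al, lie in chr13:21715763-23934851. Its sum was 1182 and 885 CPM in the WT libraries against 3081, 2529 and 840 CPM in the KO libraries. Hist1 falls into 2 blocks, at chr13:21715763-22043676 and chr13:23531050-23934851. The median log2 fold change without KO replicate 3 was 1.25 over the 20 measured genes of the former and 0.96 over the 28 of the latter. The order of these medians by type differed between the blocks. H2B had 1.79 and H4 1.18 in the former, and H2B had 1.27 and H4 2.35 in the latter. By summed CPM the order was not turned. In the former, KO replicates 1 and 2 were at 4.54 and 4.89 times the WT mean for H4. For H2B they were at 4.14 and 3.56 times. In the latter these ratios were 7.07 and 6.24 for H4 and 1.99 and 2.19 for H2B. Medians on the log2(CPM + 1) scale shrink the changes of low genes. Hist2, at chr3:96219865-96270132 with 10 genes, summed to 245 and 179 CPM in the WT libraries against 494, 273 and 202 CPM in the KO libraries, of which Hist2h2bb gave the greater part. Its 6 measured genes other than Hist2h4 had a median of 0.48 in that fit.

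Hist3, on chromosome 11, stayed low. Hist3h2a was at 5.75 and 4.70 CPM in the WT libraries against 6.14, 7.36 and 4.33 CPM in the KO libraries. Hist3h2ba was at 2.50 and 0.70 CPM in the WT libraries against 3.37, 1.84 and 0.80 CPM in the KO libraries, and the pseudogene Hist3h2bb-ps was at 0.84 and 0.56 CPM in the WT libraries against 1.88, 1.28 and 0.52 CPM in the KO libraries. Their log2 fold changes with all libraries were 0.14, 0.21 and 0.35, none past the test (limma).

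Grouped by the hairpin, the values follow the histone type, since the arm and the type go together. In the fit without KO replicate 3 the 10 genes with GGCCCT had a median log2 fold change of 2.17, the 2 with GGTCCT 1.79, the 28 measured with GGCTCT 0.85, and the 19 measured with no hairpin in the model 0.99. The ranges overlapped, from 0.71 to 3.29 with GGCCCT and from -0.01 to 2.33 with GGCTCT. Among genes with mostly unique windows H4 again came first. That limit covers whole gene models, and some H4 models, such as those of Hist1h4d and Hist2h4, lie mostly past the hairpin. Over the 31 measured genes with at least 50% unique windows, the H4 median was 2.36 (9 genes), H3 0.89 (4), H1 0.88 (5), H2A 0.84 (3) and H2B 0.69 (10). The H2B median fell most with this limit, from 1.36, and moved H2B from the place next to H4 to the lowest.

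Gene model length was compared because most cluster histone genes are short. In the fit without KO replicate 3, other protein-coding genes of at most 500 bases had a median log2 fold change of 0.22 (19 genes) and those above that and up to 1000 bases 0.26 (166). The median was -0.01 between 4000 and 8000 bases and -0.07 above 8000. The measured histone genes had 1.12 (24 genes) and 0.88 (19) in the 2 shortest classes and 0.86 above 4000 bases (2). These last 2 are Hist1h1d and Hist1h2be, with coding regions of 663 and 378 bases. Their models run 4884 and 1861 bases past the hairpin, so model length need not be message length. The part of this trend in the histone values was not tested.

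**Figure D4:**
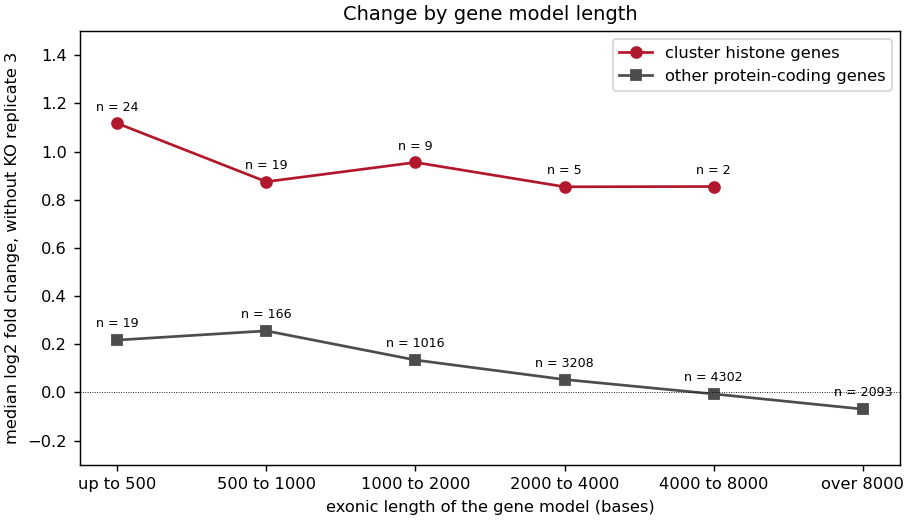
Median log2 fold change, KO over WT, in the fit without KO replicate 3 (vertical axis) by exonic length of the gene model in bases (horizontal axis), for cluster histone genes (circles) and other protein-coding genes (squares), with the number of genes at each point. The histone medians lie between 0.85 and 1.12, and those of the other genes between -0.07 and 0.26.

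Genes that process and degrade histone messages were divided evenly about 0. Of 41 measured genes of histone 3′-end processing and decay, 20 had a log2 fold change above 0 and 21 below, with a median of 0.00, and 0 passed the test with or without KO replicate 3 (limma). The list includes Dis3l2, which did not pass although all its KO libraries were below WT. Slbp, which binds the hairpin, was at 48.9 and 55.1 CPM in the WT libraries against 51.9, 57.4 and 60.2 CPM in the KO libraries. Lsm11, a protein of the U7 particle, was at 15.1 and 16.5 CPM in the WT libraries against 14.7, 16.7 and 17.9 CPM in the KO libraries. Eri1, an exonuclease that trims histone 3′ ends, was at 53.8 and 46.5 CPM in the WT libraries against 52.4, 40.8 and 59.9 CPM in the KO libraries. In all 3 the WT and KO libraries overlapped. Zfp473 encodes a zinc finger protein of histone pre-mRNA processing. It was at 0.97 and 0.56 CPM in the WT libraries against 1.32, 1.00 and 1.18 CPM in the KO libraries, all above WT. KO replicate 2 cleared WT replicate 1 by less than the level of 1 read in the latter, 0.046 CPM. In 11 of the 41, KO replicates 1 and 2 were both above both WT libraries, against 23.5% of all genes. Among these Snrpb, a core protein of spliceosomal and U7 particles, also had KO replicate 3 lowest. Its level was 76.4 and 63.3 CPM in the WT libraries against 126, 115 and 52.3 CPM in the KO libraries. The same order held in Snrpf, Snrpe, Smn1, Upf1, Lsm1, Wdr33 and Exosc10, named after their values were seen. It did not hold in Zfp473 and Ncbp2, and in Ctif KO replicate 3 equalled WT replicate 1. In 10 of the 41, KO replicates 1 and 2 were both below both WT libraries, against 18.0% of all genes. The U7 RNA gene Rnu7 was at 0 in every library.

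Regulators of histone transcription were divided in the same way. Of 17 measured, 8 were above 0 and 9 below, and 0 passed. Npat, the coactivator that switches on histone genes at the start of S phase, was at 60.5 and 55.5 CPM in the WT libraries against 47.7, 51.7 and 68.0 CPM in the KO libraries, lowest where the histone RNA was highest. Cyclin E1, Ccne1, which with Cdk2 acts on Npat, was at 13.3 and 13.4 CPM in the WT libraries against 16.9, 15.7 and 15.9 CPM in the KO libraries, where all KO libraries were above WT. Cdk2 was at 54.9 and 55.1 CPM in the WT libraries against 61.8, 58.2 and 57.0 CPM in the KO libraries. Of 26 measured chaperones and assembly factors, 16 were above 0 and 10 below, with a median of 0.06. Among them Asf1b, a chaperone of H3 and H4, was at 13.1 and 11.97 CPM in the WT libraries against 16.2, 13.8 and 13.7 CPM in the KO libraries.

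Most S-phase genes had small differences above 0. Of 40 measured, 31 were above 0 and 9 below, with a median log2 fold change of 0.12 and 0 past the test. In 9 of the 40 every KO library was above both WT libraries, against 7.85% of all genes. KO replicates 1 and 2 were both above both WT libraries in 17 of the 40, against 23.5% of all genes. They were both below both in 6, against 18.0%. Of the 17, Pold1, Cdt1 and Uhrf1, named after their values were seen, also had KO replicate 3 lowest, and the others did not. Mcm2, part of the replicative helicase and a carrier of parental histones, was at 54.0 and 51.4 CPM in the WT libraries against 71.1, 66.5 and 54.6 CPM in the KO libraries. Fen1, which processes lagging strands, was at 28.0 and 24.0 CPM in the WT libraries against 41.1, 32.9 and 29.4 CPM in the KO libraries. By library the S-phase median was 0.18, 0.06 and 0.07 in KO replicates 1, 2 and 3, so KO replicate 3 was not the lowest there. Of 20 measured G2 and mitosis genes 17 were above 0, with medians of 0.41, -0.13 and 0.01 in KO replicates 1, 2 and 3. The part of S phase in the histone values was not tested.

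Some variant histones outside the clusters also had higher levels in KO replicates 1 and 2. Their messages carry a poly(A) tail in most cases and are made throughout the cell cycle. Of 11 measured, 10 were above 0, with a median of 0.18 and 0 past the test. In 4 of the 11, KO replicates 1 and 2 were both above both WT libraries, against 23.5% of all genes. H2afz, which encodes H2A.Z, was at 79.8 and 57.4 CPM in the WT libraries against 176, 114 and 58.3 CPM in the KO libraries. H2afv, its close relative, was at 37.3 and 29.8 CPM in the WT libraries against 74.2, 48.9 and 33.7 CPM in the KO libraries. H2afx, which marks DNA breaks, was at 19.8 and 19.6 CPM in the WT libraries against 34.2, 27.5 and 19.8 CPM in the KO libraries. In all 3 KO replicate 3 lay within or at the edge of the WT range. H2afx messages are known to end either at a hairpin or in a poly(A) tail.

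**Figure D5:**
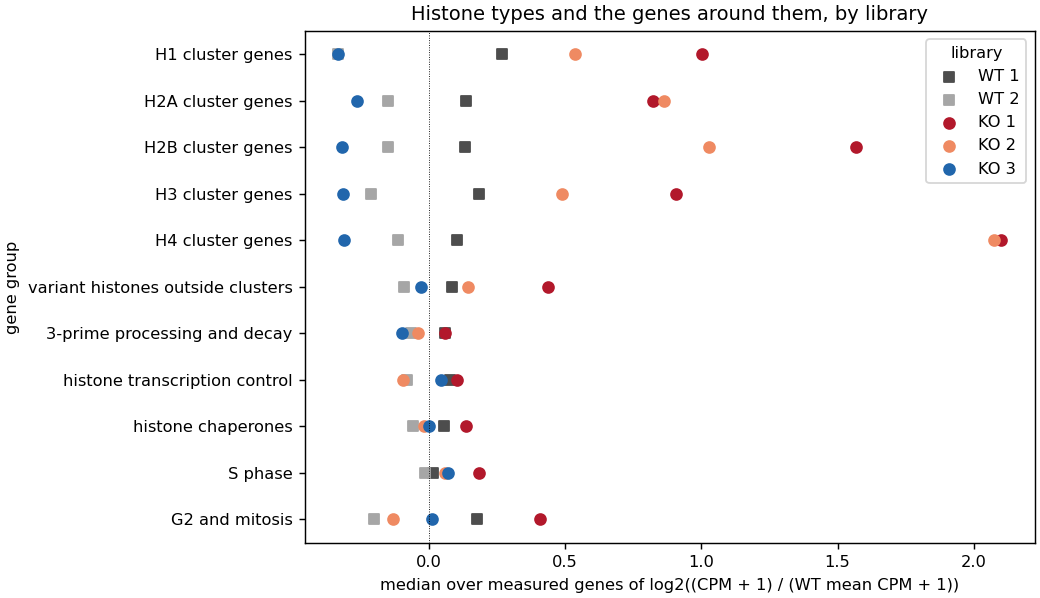
Median over the measured genes of each group of log2((CPM + 1) / (WT mean CPM + 1)) (horizontal axis), for the 5 types of cluster histone genes and 6 lists of related genes (vertical axis), with squares for WT and circles for KO libraries. The H4 medians of KO replicates 1 and 2, at 2.101 and 2.075, lie farthest from WT, and the processing, transcription control and chaperone lists stay between -0.10 and 0.14 in every library.

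Some abundant short non-coding RNAs ordered the libraries in the same way. Rn7sk, a regulator of transcription elongation, held 3.83% and 3.51% of the summed values of the WT libraries against 11.9%, 6.48% and 2.27% of those of the KO libraries. Rpph1, the RNA of ribonuclease P, named like Rn7sk after its values were seen, was at 48.2 and 29.0 CPM in the WT libraries against 290, 341 and 25.4 CPM in the KO libraries. Both are made by RNA polymerase III, unlike histone messages. The 2 mitochondrial ribosomal RNAs together held 40.7% and 38.9% of the WT sums against 31.6%, 32.7% and 32.9% of the KO sums, and so did not separate KO replicate 3 from the other KO libraries. The part of these differences in the histone values was not tested.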

How the data were processed

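Total RNA of 5 libraries (2 WT, 3 KO) was sequenced. Per the submitters' processing notes the tools were HISAT2 2.1.0, featureCounts and edgeR 3.20.1, on build mm10. The annotation release and the handling of strand and of multiply matching reads were not given in the sources used here. The deposited signal is CPM relative to an effective library size, given to 2 decimals. The same deposited table holds the authors' log2 fold changes, a likelihood ratio score, and p-values with FDR, quoted only as theirs.

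Genes reaching 0.5 CPM in 2 or more libraries were kept (14884), and KO was compared with WT by limma 3.58.1 (R 4.3.3, trend option) on log2(CPM + 1), two-sided, with genotype as the 1 term. P-values were adjusted by Benjamini-Hochberg over all genes tested, at a threshold of 0.05. Fold changes on this scale understate changes of low genes. No count model was run. The fitting steps were first tested on simulated data with the same spread and depth in every library. That simulation does not cover a library that stands apart, as KO replicate 3 does. The depth, read from steps in the low values, limits low genes most, and floors cover counting error only. Medians and counts over members are descriptions with no test of their own.

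Named members were the 4 with the highest mean CPM in each histone type, the 3 highest of Hist2, Hist3 and Hist4, any with an unadjusted p under 0.05, and the 3 with the largest change in each direction. From the lists of related genes, those with the smallest p were eligible, with Dis3l2, Slbp, Lsm11, Npat and Eri1 in any case. Others are marked as chosen after their values were seen. The members and lists were chosen with earlier results of these data known. Hairpins, uniqueness and overlaps were computed on the transcripts and annotation of GENCODE M21, and promoters came from RefSeq. Protein sequences were not used here. Alternatives were other scalings, pseudocounts of 0.25 and 5, other filters, a replicate block, and leaving out each library.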

Additional observations from a re-analysis of the deposited data

How the results depend on the processing

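Over all genes the count past the threshold was 1, and it was 0 with median-of-ratios size factors, with a pseudocount of 5 and with no filter. It was 0 to 8 when single libraries were left out, and among cluster histone genes 0 to 8 against 0 with all libraries, the 8 without KO replicate 3. The median over measured members ranged from 0.33 to 0.96 when libraries were left out, and was not turned by any of these. Replicate numbers share nothing that the labels state. The deviations of same-numbered libraries correlated at 0.41 and 0.54 over genes, from 2 pairs that mirror each other. With a replicate block 390 genes passed, 339 of them higher in KO, or 2.28% of all genes tested, and 51 lower. Of the 59 measured cluster histone genes 38 passed. In that fit KO replicate 3, which has no WT partner, has a term of its own and adds nothing to the fold changes.

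Leaving out single libraries turned the log2 fold change of some members near 0. Hist3h2a ranged from -0.0079 to 0.32, Hist3h2ba from -0.31 to 0.73, Hist1h2bp from -0.47 to 0.19, Hist2h2ab from -0.34 to 0.45 and Hist1h3h from -0.068 to 0.32. Among related genes Lsm11 ranged from -0.0090 to 0.12, Npat from -0.22 to 0.034 and Eri1 from -0.11 to 0.16. Lsm11 was at -0.014 with the scaling without abundant RNAs and -0.0087 with the replicate block. Eri1 was at -0.0094 with median-of-ratios size factors, -0.057 with the scaling without abundant RNAs and -0.11 with the replicate block. The cause was not tested. Depth limits the 11 untested members most.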
